A study of Mus musculus with 6 samples.

Results

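This account describes genes of glycolysis and of the cellular response to low oxygen in whole primary mammary tumours of mice. The 32 genes listed comprise 2 transporters, 15 glycolytic enzymes or regulators of glycolysis, and 15 other hypoxia response genes. Each was taken as the probe set with a single gene symbol and the highest mean over all arrays. By this rule 29 of the 32 were found among 20402 genes measured, namely both transporters, 12 of the 15 enzymes and all 15 other hypoxia genes. Hk2, Pgk1 and Eno1 had only probe sets that carry several gene symbols and were not analysed here.

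The tumours grew from 4T1.2, a metastatic mouse mammary carcinoma line, after 100000 cells had been injected into female BALB/c mice aged 6 to 8 weeks, at the 4th inguinal fat pad, and were excised at about 0.3 g. The Bmp4 group holds 3 tumours of cells transduced with the retroviral vector pBabepuro carrying murine Bmp4, and the control group 3 tumours of cells with the empty vector, so both groups carry the vector. The labels do not say whether the transduced lines were clones or pools, what drives the insert, or whether any tumours shared a mouse, and the p-values therefore cover only the spread among these 6 tumours. RNA of each tumour was hybridized to an Affymetrix mouse array, and levels below are log2 values after RMA, a procedure of background correction, quantile normalization and summarization. Of 10 carcinoma markers 2, the simple epithelial keratins Krt8 and Krt18, exceeded the 75th percentile on every array and the other 8 did not; Krt5, Krt14 and Krt19 lay near or below the array medians on most arrays. The only probe set counted for Bmp4 read 5.04, 4.94 and 5.51 in Bmp4 tumours, against 6.48, 5.93 and 4.99 in control tumours, so it was not higher in the Bmp4 group; whether it lies in the vector's insert is unknown here, and the groups are called by their labels.

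Glycolysis converts glucose to pyruvate in the cytosol, and lactate dehydrogenase reduces pyruvate to lactate when mitochondria do not take it up. When oxygen is plentiful, prolyl hydroxylases of the EGLN family mark HIF-1 alpha, encoded by Hif1a, for destruction. When oxygen is short, HIF-1 alpha accumulates, pairs with ARNT and binds hypoxia response elements with the core letters ACGTG or GCGTG, which switches on glucose transporters, most glycolytic enzymes and a set of further genes for acid handling, mitochondrial removal and collagen modification. Solid tumours commonly contain poorly perfused regions in which these genes are active. HIF-1 alpha is controlled mainly at the level of its protein, which arrays do not measure.

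The core of the hypoxia response element is frequent in the promoters of these genes, and 4 of the promoters are shown because their genes had the smallest p-values, in the fit without control tumour 1, among those with ACGTG in the window. RefSeq windows of 300 bases (250 before and 50 after the annotated start, build GRCm38.p6) were given for 27 of the 29 genes. ACGTG was searched on both strands, as ACGTG or CACGT; the letters CACGTG contain both. The motif occurred in the windows of 20 of the 27 genes (74.1%), against 21.8% of 27025 genes with a window and 26.4% of the 13943 of them measured on the arrays; a gene with several windows counted once if any held it. Its other form, GCGTG, occurred in 18 of the 27 genes (66.7%), 35.2% of all genes with a window and 48.2% of those measured. A match is a description of the letters and no evidence of binding. In the windows below, each in the direction of its gene, capitals mark ACGTG on either strand; P4ha1 lies at chr10:59323046-59323345 on the + strand, Aldoc at chr11:78322823-78323122 on the + strand, Higd1a at chr9:121857747-121858046 on the - strand and Ankrd37 at chr8:45999801-46000100 on the - strand.
P4ha1: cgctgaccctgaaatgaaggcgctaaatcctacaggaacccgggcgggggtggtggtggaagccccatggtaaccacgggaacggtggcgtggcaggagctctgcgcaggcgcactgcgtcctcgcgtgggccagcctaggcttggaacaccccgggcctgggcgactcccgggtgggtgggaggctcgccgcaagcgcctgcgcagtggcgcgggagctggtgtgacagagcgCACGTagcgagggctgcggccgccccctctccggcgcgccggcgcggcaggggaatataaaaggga
Aldoc: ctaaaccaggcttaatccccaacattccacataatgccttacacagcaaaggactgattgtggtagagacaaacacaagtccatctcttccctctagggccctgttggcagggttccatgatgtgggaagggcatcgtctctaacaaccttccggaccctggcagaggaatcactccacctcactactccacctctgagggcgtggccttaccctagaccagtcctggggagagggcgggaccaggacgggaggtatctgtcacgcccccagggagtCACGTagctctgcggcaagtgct
Higd1a: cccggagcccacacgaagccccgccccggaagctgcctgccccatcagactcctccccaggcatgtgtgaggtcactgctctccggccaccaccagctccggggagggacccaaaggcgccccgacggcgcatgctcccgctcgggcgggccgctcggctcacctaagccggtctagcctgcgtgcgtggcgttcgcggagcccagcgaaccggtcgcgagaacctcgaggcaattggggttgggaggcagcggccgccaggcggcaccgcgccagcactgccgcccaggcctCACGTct
Ankrd37: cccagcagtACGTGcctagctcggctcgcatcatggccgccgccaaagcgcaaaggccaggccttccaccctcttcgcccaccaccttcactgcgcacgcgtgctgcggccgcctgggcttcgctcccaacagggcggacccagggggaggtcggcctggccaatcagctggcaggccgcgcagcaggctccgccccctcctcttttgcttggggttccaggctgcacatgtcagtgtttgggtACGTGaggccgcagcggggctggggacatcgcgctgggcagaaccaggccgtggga

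Ankrd37 had 2 such matches, at -241 and -6 from its annotated start, and the other 3 windows 1 each, at -16 in P4ha1, 27 in Aldoc and 43 in Higd1a.

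The array of control tumour 1 stood apart, and the difference of each gene is given with all 6 arrays and without it, while further probe sets of a gene are given without it. Its Pearson correlations across probe sets with the rest were 0.655 to 0.719, where the other 5 arrays correlated among themselves at 0.959 to 0.993, and its interquartile range was 2.25 log2 units. Other measures separated the groups with or without that array. The interquartile range was 3.67 to 3.77 in Bmp4 tumours, against 3.36 and 3.64 in control tumours 2 and 3. The mean of the hybridization controls, spiked in at fixed amounts, was 10.04, 10.04 and 10.30 in Bmp4 tumours, against 13.01, 11.23 and 10.66 in control tumours. The 3' minus 5' difference between control probe sets of Actb, a common measure of RNA degradation, was 1.44 to 2.33 in Bmp4 tumours and 2.62 to 5.64 in control tumours, so the groups did not overlap, and without control tumour 1 the control range was 2.62 to 4.18. The part of these measures in the differences below was not tested.

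None of the 29 genes differed between Bmp4 and control tumours past the threshold of an adjusted p under 0.05. Without control tumour 1 the brightest probe sets of most genes differed by little. Their 95% intervals were as wide as -1.03 to 0.98 (Car9), and dimmer probe sets of some genes differed by more, such as 1.23 for Slc2a1. With all 6 arrays 25 of the 29 had a higher mean in Bmp4 tumours, and the median difference was 0.69 on the log2 scale. Control tumour 1 was the lowest of the 6 arrays for 25 of the 29. The median over all genes was -0.12, and that of the 7085 genes above the 75th percentile of mean signal was 0.73. Without control tumour 1 the median was 0.16, with 18 positive and 11 negative, beside -0.04 for all genes and 0.11 for the brighter ones. In that setting 22 of the 29 differed by less than 0.3 in either direction, that is, by less than 1.23-fold. In whole tumours, fewer cells of a type and less RNA per cell cannot be told apart.

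**Figure D1:**
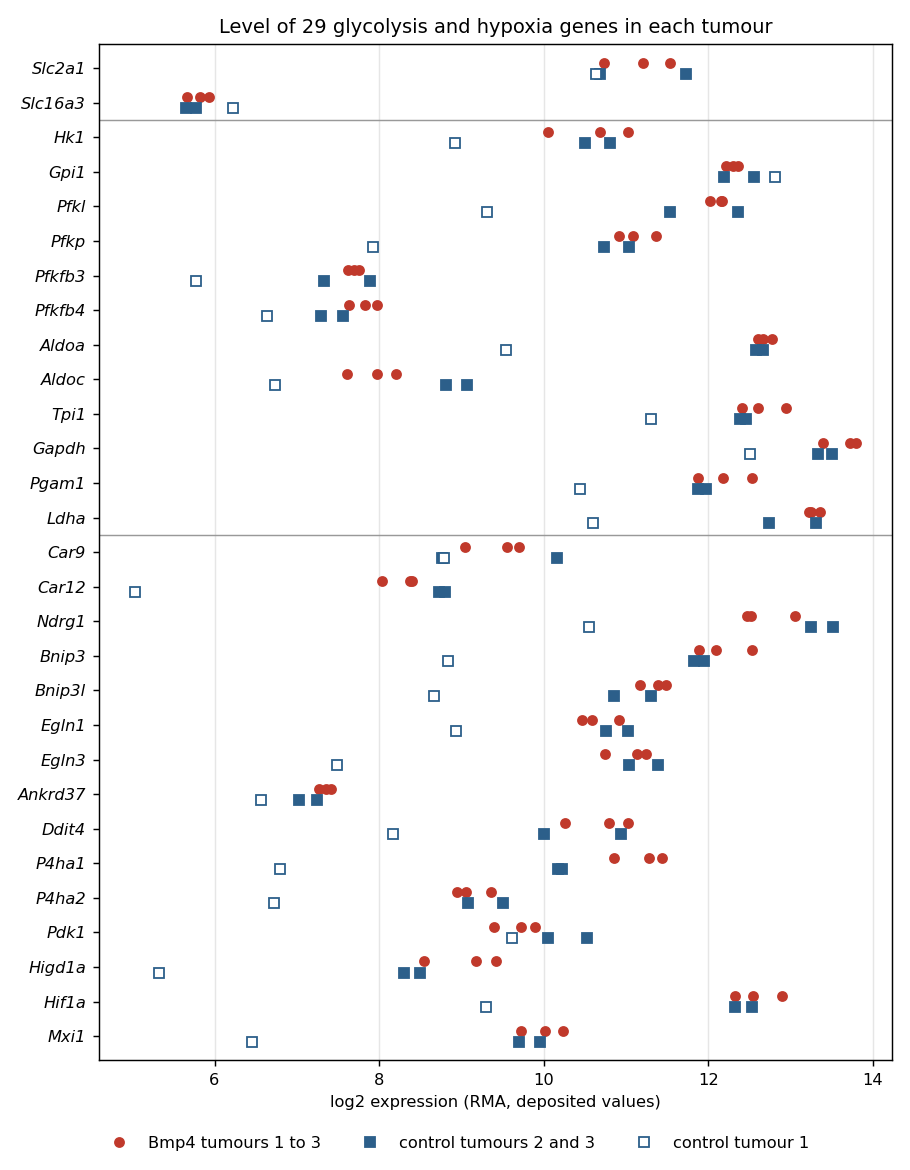
Each row shows the log2 expression of a gene in the 3 Bmp4 tumours (red circles), control tumours 2 and 3 (filled blue squares) and control tumour 1 (open blue squares); lines separate transporters, glycolytic enzymes and other hypoxia genes. Control tumour 1 is the lowest point in 25 of the 29 rows, while the other tumours lie close together in most rows. Pfkfb4, Ankrd37, P4ha1 and Higd1a separate the groups with all arrays. Once control tumour 1 is set aside, Aldoc, Car12, Ndrg1 and Pdk1 do so as well, in the other direction.

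The counts past each threshold are set beside those over all genes. By limma, with Benjamini-Hochberg adjustment over all genes, 0 of 29 were called with all 6 arrays, where the percentage of all genes called was 0%, and 0 of 29 without control tumour 1, where it was 0.0196%; counting unadjusted p-values under 0.05 gave 0 with all 6 arrays, and 1 higher and 4 lower without control tumour 1. Over all genes, unadjusted p-values under 0.05 made up 4.91% with all 6 arrays (3.74% higher and 1.17% lower), and 14.7% without control tumour 1 (9.07% higher and 5.67% lower). The groups did not overlap for 4 of the 29, all higher in Bmp4 tumours, with all 6 arrays, against 26.5% of all genes (12.9% higher and 13.6% lower). Without control tumour 1 this held for 4 higher and 4 lower, against 34.1% of all genes (15.9% higher and 18.3% lower). The authors' deposited table gives adjusted p-values of 0.523 or more for all 29. A two-sided exact permutation test per gene could reach no p under 0.1 with these group sizes, so the tests depend on the spread that limma shares across genes.

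**Figure D2:**
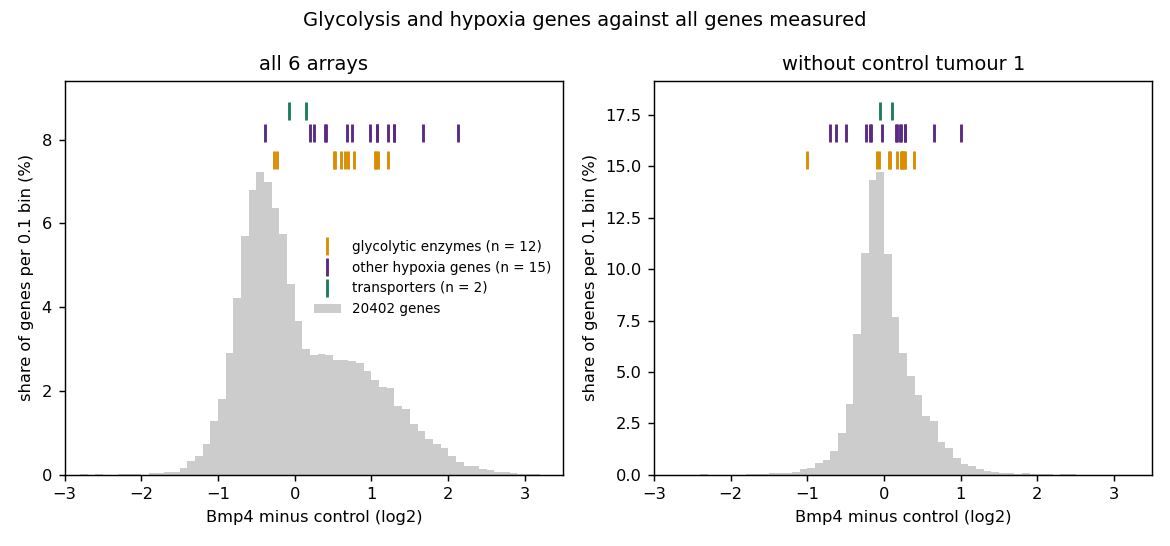
Grey bars give the share of the 20402 genes in each 0.1-wide bin of the Bmp4 minus control difference (log2; a few genes lie beyond the right edge), and coloured ticks above them the glycolytic enzymes, other hypoxia genes and transporters. With all 6 arrays the bars have a broad right shoulder, in which most ticks lie (medians 0.67 for enzymes and 0.98 for other hypoxia genes); without control tumour 1 the bars narrow around -0.04 and most ticks lie near 0, with Aldoc at -1.01 and P4ha1 at 1.0 farthest out.

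The brightest probe sets of the glucose and lactate transporter genes did not separate the groups. Slc2a1 encodes GLUT1, the basal glucose transporter, and its level was 11.21, 10.73 and 11.54 in Bmp4 tumours 1 to 3, against 10.63, 11.73 and 10.69 in control tumours 1 to 3. Control tumour 2 was the highest and the other 2 control tumours the lowest of all 6, so the groups overlapped. The difference was 0.14 ± 0.41 (SE; limma adjusted p = 0.808) with all 6 arrays and -0.05 ± 0.36 (SE; adjusted p = 0.954) without control tumour 1, and the direction turned with that array. A dimmer Slc2a1 probe set, given with the other probe sets further on, lay higher in every Bmp4 tumour. Slc16a3 encodes MCT4, which exports lactate from glycolytic cells. It was dim, at 5.67, 5.93 and 5.82 in Bmp4 tumours and 6.23, 5.77 and 5.65 in control tumours, close to the medians of all probe sets (5.73 to 6.17 over the arrays). The groups overlapped, and the difference was -0.08 ± 0.27 (SE) with all arrays and 0.10 ± 0.15 (SE) without control tumour 1.

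The brightest probe sets of the listed enzymes and regulators of glycolysis mostly differed by little once control tumour 1 was left out. Over the 12 enzymes and regulators the differences then ran from -1.01 to 0.39 with a median of 0.19, and 10 of the 12 were under 0.3 in size. The per-array mean of the 12 was 11.22, 11.05 and 11.23 in Bmp4 tumours, against 9.38, 11.04 and 11.17 in control tumours, and control tumour 1 lay far below the other 5. With all 6 arrays the median was 0.67, the range -0.27 to 1.22, and 10 were positive. Pyruvate kinase is not among the listed enzymes. Its gene Pkm, taken from the further glycolysis genes below, was 13.04, 12.76 and 12.92 in Bmp4 tumours. Control tumours 1 to 3 read 8.49, 12.20 and 12.64, so every Bmp4 tumour exceeded every control tumour. Pkm differed by 1.80 with all arrays and by 0.49 ± 0.19 (SE, limma adjusted p = 0.318) without control tumour 1.

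Lactate dehydrogenase A, which turns pyruvate into lactate, had Ldha levels of 13.23, 13.25 and 13.36 in Bmp4 tumours, against 10.60, 12.74 and 13.31 in control tumours. Control tumour 3 lay among the Bmp4 tumours, control tumour 2 below them, and control tumour 1 far below. The difference of 1.06 ± 0.69 (SE; limma adjusted p = 0.496) with all arrays became 0.26 ± 0.20 (SE; adjusted p = 0.539) without control tumour 1, with a 95% interval of -0.22 to 0.73. Aldoa encodes aldolase A, the form found in most tissues, muscle included, and its levels were 12.67, 12.61 and 12.77 in Bmp4 tumours, against 9.54, 12.66 and 12.58 in control tumours. All tumours but control tumour 1 lay between 12.58 and 12.77. Its difference was 1.09 ± 0.85 (SE) with all arrays, and without that tumour 0.06 (95% interval -0.27 to 0.40), and its SE, 0.14, was the smallest of the 29.

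Other listed enzymes of the path from glucose to lactate gave similar values. The hexokinase Hk1, which traps glucose in the cell, differed by 0.51 ± 0.56 (SE) with all arrays and -0.07 ± 0.29 (SE) without control tumour 1, and the isomerase Gpi1 by -0.23 ± 0.27 and -0.09 ± 0.17 (SE). Pfkl and Pfkp, the liver and platelet forms of phosphofructokinase, which catalyses the committed step, differed by 1.05 ± 0.76 and 1.22 ± 0.82 (SE) with all arrays, and by 0.17 ± 0.25 and 0.24 ± 0.19 (SE) without control tumour 1. The triose phosphate isomerase Tpi1, the dehydrogenase Gapdh and the mutase Pgam1 differed by 0.60, 0.52 and 0.77 with all arrays, and by 0.23, 0.22 and 0.27 without control tumour 1. For all 7 the groups overlapped, and limma's adjusted p without control tumour 1 was between 0.542 (Pgam1) and 0.919 (Hk1). Gpi1 was the enzyme that control tumour 1 did not place lowest: its levels were 12.30, 12.22 and 12.36 in Bmp4 tumours, against 12.81, 12.56 and 12.19 in control tumours, where control tumour 1 was the highest of the 6.

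The bifunctional enzymes that make and break fructose 2,6-bisphosphate, the allosteric activator of phosphofructokinase, differed from each other in pattern. Pfkfb4 was 7.98, 7.83 and 7.64 in Bmp4 tumours, against 6.64, 7.29 and 7.56 in control tumours. The Bmp4 tumours were all above the control tumours, narrowly so for control tumour 3, and the difference was 0.65 ± 0.32 (SE; limma adjusted p = 0.496), or 0.39 ± 0.17 (SE; adjusted p = 0.350) without control tumour 1. Pfkfb3, whose product strongly favours the activating reaction, was 7.75, 7.62 and 7.69 in Bmp4 tumours, against 5.77, 7.33 and 7.89 in control tumours. There control tumour 3 was the highest of all, and the difference was 0.69 ± 0.55 (SE) with all arrays, against 0.08 ± 0.20 (SE) without control tumour 1.

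Without control tumour 1, Aldoc was the enzyme farthest from 0; with all arrays Pfkp was, at 1.22. Aldoc encodes aldolase C, the form best known from brain, and its levels were 8.20, 7.61 and 7.98 in Bmp4 tumours, against 6.73, 9.07 and 8.81 in control tumours. Control tumours 2 and 3 lay above every Bmp4 tumour and control tumour 1 below every one, so with all 6 arrays the groups overlapped. The difference was -0.27 ± 0.64 (SE; limma adjusted p = 0.773) with all arrays and -1.01 ± 0.21 (SE; adjusted p = 0.239; 0.497-fold; 95% interval -1.52 to -0.50) without control tumour 1. In alternative fits without that tumour the difference stayed between -1.14 and -0.60 and the adjusted p between 0.0802 and 0.814. With all 6 arrays weighted by limma's estimate of their quality it was -1.05 (adjusted p = 0.0361, range 0.0361 to 0.975 over the alternatives with all arrays); the weights were 0.034, 2.97 and 0.658 for control tumours 1 to 3, so that fit rested mostly on control tumour 2 among the controls. The second Aldoc probe set, near the array medians in level, differed by -0.19 without control tumour 1.

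**Figure D3:**
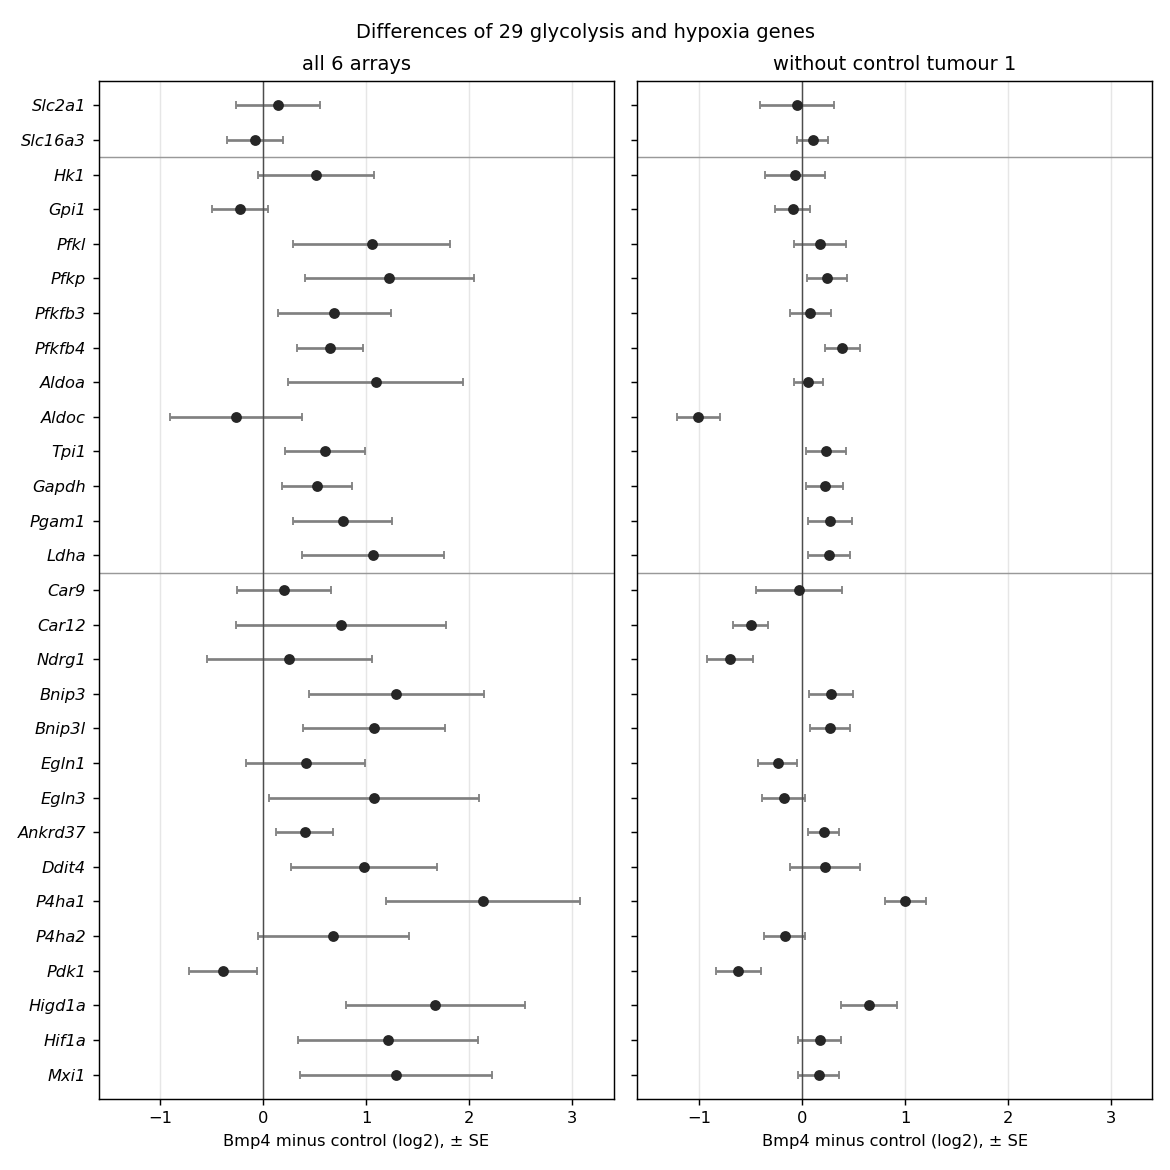
Points give the Bmp4 minus control difference of each gene on the log2 scale and bars ± 1 SE from limma, with all 6 arrays on the left and without control tumour 1 on the right. The bars on the left are wider and most points lie right of 0. On the right 22 of 29 points lie within 0.3 of 0. P4ha1, Higd1a and Pfkfb4 lie farther to the right, and Aldoc, Ndrg1, Pdk1 and Car12 farther to the left.

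Among the other hypoxia genes the largest difference was in P4ha1, the catalytic subunit of the prolyl 4-hydroxylase that stabilizes collagen. Its levels were 11.28, 10.86 and 11.44 in Bmp4 tumours, against 6.80, 10.22 and 10.17 in control tumours. Every Bmp4 tumour exceeded every control tumour, whether or not control tumour 1 was counted. It differed by 2.13 ± 0.94 (SE; limma adjusted p = 0.496) with all arrays and 1.0 ± 0.20 (SE; adjusted p = 0.230; 2.0-fold; 95% interval 0.51 to 1.49) when that tumour was omitted. Over the alternatives without that tumour it stayed between 0.88 and 1.17, with adjusted p between 0.0983 and 0.814; with array weights it was 1.06 (adjusted p = 0.0401, range 0.0401 to 0.715 over the alternatives with all arrays). Its second, much dimmer probe set differed by 0.82 in the same direction, with 5.86, 5.27 and 5.85 in Bmp4 tumours, against 4.84, 4.90 and 4.78 in control tumours, again without overlap. The authors' deposited table gives ratios of 1.82 and 1.87 for the 2 probe sets. For the brighter probe set that ratio is nearer to the fit without control tumour 1 than to the fit of all arrays. P4ha2, the alternative catalytic subunit, did not separate the groups: it was 9.06, 8.95 and 9.36 in Bmp4 tumours, against 6.72, 9.51 and 9.08 in control tumours, a difference of 0.68 ± 0.73 (SE) with all arrays and -0.17 ± 0.20 (SE) without control tumour 1.

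Higd1a and Ankrd37 also lay higher in every Bmp4 tumour. Higd1a encodes a protein of the inner mitochondrial membrane, and its levels were 9.18, 8.54 and 9.42 in Bmp4 tumours, against 5.33, 8.30 and 8.50 in control tumours. Bmp4 tumour 2 was only just above control tumour 3, and the difference was 1.67 ± 0.87 (SE; limma adjusted p = 0.496), or 0.65 ± 0.27 (SE; adjusted p = 0.340) without control tumour 1. Ankrd37, an ankyrin repeat gene whose promoter above holds both ACGTG matches, was 7.41, 7.27 and 7.35 in Bmp4 tumours, against 6.57, 7.03 and 7.24 in control tumours. Bmp4 tumour 2 and control tumour 3 nearly met, and the difference was 0.40 ± 0.28 (SE; adjusted p = 0.496), or 0.21 ± 0.15 (SE; adjusted p = 0.507) without control tumour 1.

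Ndrg1, Pdk1 and Car12 ran the other way when control tumour 1 was left out. Ndrg1, a stress-responsive gene long used as a hypoxia marker, was 12.47, 12.52 and 13.06 in Bmp4 tumours, against 10.55, 13.52 and 13.25 in control tumours. Control tumours 2 and 3 were the highest and control tumour 1 the lowest of the 6. The difference was 0.25 ± 0.80 (SE) with all arrays and -0.70 ± 0.22 (SE; limma adjusted p = 0.280) without control tumour 1. Pdk1 encodes a kinase that shuts pyruvate dehydrogenase and so limits the use of pyruvate in the citric acid cycle. Pdk1 was 9.40, 9.72 and 9.90 in Bmp4 tumours, against 9.61, 10.53 and 10.05 in control tumours. Its difference was negative in both settings, at -0.39 ± 0.33 and -0.62 ± 0.22 (SE; adjusted p = 0.499 and 0.300), and control tumour 1 lay within the range of the Bmp4 tumours. With each gene's probe sets averaged, the differences without control tumour 1 were -0.13 for Ndrg1 and -0.25 for Pdk1.

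The carbonic anhydrases, which help cells to export acid, gave unlike patterns. Car12 was 8.40, 8.04 and 8.37 in Bmp4 tumours, against 5.03, 8.73 and 8.80 in control tumours. The value of control tumour 1 lay below the 25th percentile of its array (5.04). With it the difference was 0.75 ± 1.02 (SE), without it -0.50 ± 0.17 (SE; limma adjusted p = 0.288), and both other control tumours lay above every Bmp4 tumour. Car9, which is scarcely expressed in most normal tissue and is a standard marker of tumour hypoxia, was 9.04, 9.56 and 9.70 in Bmp4 tumours, against 8.79, 10.16 and 8.76 in control tumours. Control tumour 2 was the highest of the 6 and the other 2 control tumours the lowest, the same arrangement as for Slc2a1. The Car9 difference was 0.20 ± 0.46 (SE) with all arrays, and without control tumour 1 it was -0.03 ± 0.42 (SE), the widest error of the 29, with a 95% interval of -1.03 to 0.98, so differences within that interval could not be told from 0.

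Hif1a itself, which encodes the oxygen-regulated subunit, was 12.32, 12.54 and 12.90 in Bmp4 tumours, against 9.30, 12.53 and 12.32 in control tumours. Apart from control tumour 1 the groups overlapped, and the difference was 1.21 ± 0.87 (SE) with it and 0.17 ± 0.21 (SE; limma adjusted p = 0.695) without it. Its negative regulators Egln1 and Egln3, both also induced by hypoxia, differed by -0.24 ± 0.19 and -0.18 ± 0.21 (SE) without control tumour 1, where with all arrays they had differed by 0.41 and 1.07. Bnip3 and Bnip3l, receptors for the removal of mitochondria by autophagy, differed by 1.29 and 1.07 with all arrays, and by 0.28 ± 0.21 and 0.27 ± 0.19 (SE) without control tumour 1. Ddit4, an inhibitor of mTORC1, differed by 0.98 with all arrays and 0.22 ± 0.34 (SE) without control tumour 1, and Mxi1, an antagonist of MYC, by 1.29 and 0.16 ± 0.20 (SE). The groups overlapped for all 7 of these genes in both settings.

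Probe sets of the same gene often disagreed, and this limits how far a single value can be read. Of the 29 genes 20 had more than 1 single-symbol probe set, and without control tumour 1 the signs agreed within 9 of them and differed within 11. The widest spread was in Gapdh, whose only single-symbol probe sets are the 3 array controls placed along its transcript. The 5' probe set differed by 2.45, the middle one by 1.05 and the 3' one, which stands for the gene here, by 0.22. The 5' probe set read 12.18, 10.26 and 11.30 in Bmp4 tumours, against 10.05, 8.02 and 9.57 in control tumours, while the 3' one read 13.80, 13.39 and 13.72 against 12.51, 13.33 and 13.50. The Gapdh 3' minus 5' difference was 1.62 to 3.13 in Bmp4 tumours and 2.46 to 5.31 in control tumours, and without control tumour 1 the control range was 3.93 to 5.31, above every Bmp4 tumour.

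Other genes showed spreads of up to 1.28. The 3 Slc2a1 probe sets differed by -0.05, 0.41 and 1.23 without control tumour 1, the last with 10.57, 9.40 and 10.21 in Bmp4 tumours, against 6.40, 8.72 and 8.95 in control tumours and no overlap. Those of Bnip3l differed by 0.27, 0.95 and 0.68, and those of Aldoa by 0.06, 0.19 and 0.69. Those of Pfkl ran from -0.60 to 0.49, those of Pfkp from -0.50 to 0.59, and those of Tpi1 from -0.01 to 0.47, in each case with the chosen probe set in between. For Hk1, Gpi1 and Egln1 the chosen probe set was slightly negative and another was positive (0.86, 0.41 and 0.34), and for Pfkfb3 the second, dimmer probe set was at -0.19. Ndrg1 had 5 probe sets from -0.70 to 0.27, Pdk1 4 from -0.62 to 0.17 and Hif1a 4 from -0.35 to 0.17, so the directions given above for Ndrg1 and Pdk1 hold for their brightest probe sets and not for every one. All 3 probe sets of Car12 and of Egln3 were negative, both of Aldoc were negative, and both of P4ha1, Higd1a and Mxi1 were positive. Positions of these probe sets along the transcripts were not used here, and the part of the 3' to 5' measures in their spread was not tested.

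**Figure D4:**
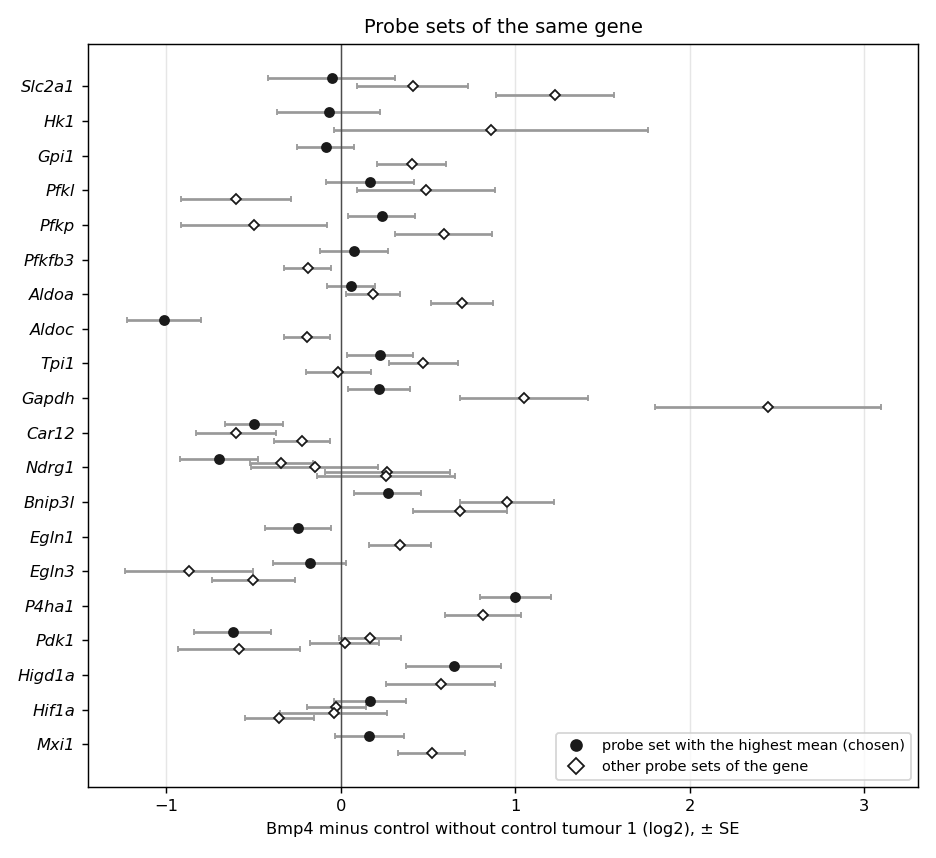
For the 20 genes with more than 1 single-symbol probe set, each point is the Bmp4 minus control difference of a probe set without control tumour 1 (log2, bars ± 1 SE), with the chosen probe set filled and the others open. The Gapdh points run from 0.22 to 2.45, Slc2a1 from -0.05 to 1.23, while both P4ha1 points (1.0 and 0.82) and both Higd1a points (0.65 and 0.57) lie close together.

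Of the further genes of the same pathways none passed the threshold in either setting. Values for these genes are without control tumour 1 unless all arrays are named. Of 26 other glycolysis and glucose genes 16 were positive and 10 negative without control tumour 1 (median 0.12), and 15 and 11 with all arrays (median 0.35). An unadjusted p under 0.05 was reached by 6 higher and 2 lower of the 26, beside 9.07% and 5.67% of all genes, and with all arrays by 1 higher and 0 lower, beside 3.74% and 1.17%. Eno3, the muscle form of enolase, was 10.68, 9.96 and 10.49 in Bmp4 tumours, against 8.11, 9.29 and 9.64 in control tumours, and differed by 0.91 ± 0.25 (SE; limma adjusted p = 0.255), and by 1.36 with all arrays. Hk3, a hexokinase of myeloid cells, differed by 0.63 (0.28 with all arrays), and Tigar, a fructose bisphosphatase that restrains glycolysis, by -0.64 (-0.09 with all arrays). Ldhb, the lactate dehydrogenase subunit that favours pyruvate formation, differed by -0.79 ± 0.17 (SE; limma adjusted p = 0.243), and by -0.57 with all arrays. Ldhb was 8.13, 8.53 and 8.46 in Bmp4 tumours, against 8.52, 9.15 and 9.17 in control tumours, and control tumour 1 alone lay among the Bmp4 values.

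Of 13 HIF pathway regulators 7 were positive and 6 negative in both settings, with a median of 0.01 without control tumour 1 and 0.10 with all arrays. Without control tumour 1 an unadjusted p under 0.05 was reached by 2 higher and 1 lower, beside 9.07% and 5.67% of all genes. With all arrays it was reached by 0, beside 3.74% and 1.17%. Cited2, which competes with HIF-1 alpha for the coactivator p300, was 12.45, 11.92 and 12.73 in Bmp4 tumours, against 5.70, 11.60 and 11.16 in control tumours, and differed by 0.99 ± 0.27 (SE; limma adjusted p = 0.258), or 2.88 with all arrays. Hif1an, the asparaginyl hydroxylase that inhibits HIF-1 alpha, differed by -0.68 ± 0.19 (SE; limma adjusted p = 0.268) and the HIF partner Arnt by -0.51, but by -0.04 and -0.01 with all arrays. Cul2, the scaffold of the VHL ubiquitin ligase, differed by 0.44 (0.68 with all arrays). Of 31 other hypoxia-inducible genes 17 were positive and 14 negative without control tumour 1 (median 0.12), and 23 and 8 with all arrays (median 0.87). An unadjusted p under 0.05 was reached by 5 higher and 2 lower without control tumour 1, beside the same 9.07% and 5.67%. With all arrays it was reached by 1 higher and 0 lower, beside 3.74% and 1.17%. Stbd1, a glycogen-binding protein, was 7.63, 7.45 and 7.64 in Bmp4 tumours, against 4.57, 6.22 and 6.75 in control tumours, with no overlap and a difference of 1.09 ± 0.20 (SE; adjusted p = 0.213), or 1.73 with all arrays. Nampt, an enzyme of NAD synthesis, differed by 0.87 (2.23 with all arrays) and Kctd11 by -0.41 (-0.51 with all arrays). Adm, which encodes the vasodilator adrenomedullin, differed by -1.0 ± 0.39 (SE; limma adjusted p = 0.318), or -0.84 with all arrays.

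The genes that carry pyruvate into mitochondria and through the citric acid cycle had mostly positive differences. Of 22 measured, 17 were positive and 5 negative without control tumour 1, with a median of 0.43, beside 0.11 for the brighter genes, and 21 and 1 with all arrays, with a median of 1.10 beside 0.73. An unadjusted p under 0.05 was found for 6 higher and 2 lower without control tumour 1, beside 9.07% and 5.67% of all genes. With all arrays it was found for 0, beside 3.74% and 1.17%. Of the 7085 brighter genes 4280 were positive without control tumour 1 and 5827 with all arrays. An unadjusted limma p under 0.05 was found for 1103 of them higher and 501 lower without control tumour 1. With all arrays these counts were 356 and 84. The per-array mean of the list was 10.70, 10.37 and 10.60 in Bmp4 tumours, against 7.49, 10.10 and 10.38 in control tumours, so Bmp4 tumour 2 and control tumour 3 overlapped. Sdhc, a subunit of succinate dehydrogenase, differed by 0.87 ± 0.23 (SE; limma adjusted p = 0.253), or 2.39 with all arrays, and Mpc2, a subunit of the mitochondrial pyruvate carrier, by 0.56 (1.27 with all arrays). Citrate synthase, Cs, differed by -0.61 ± 0.15 (SE; limma adjusted p = 0.243), or -0.17 with all arrays. Dlst, a subunit of the 2-oxoglutarate dehydrogenase complex, differed by -0.38, and by 0.81 with all arrays. With control tumours 1 and 2 both left out the median was 0.28, with 15 positive and 7 negative.

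Marker lists of some cell types separated the groups. The mean level of 8 T cell markers was 8.39 to 8.49 in Bmp4 tumours and 6.52 to 7.65 in control tumours, with no overlap. All 8 had a positive difference in both settings. Of all 20402 genes 9070 did with all arrays and 9039 without control tumour 1. The groups did not overlap for 6 of the 8 and overlapped for 2, in both settings. Among all genes every Bmp4 tumour was higher for 12.9% (all arrays) and 15.9% (without control tumour 1). The 10 macrophage markers averaged 10.59 to 11.50 in Bmp4 tumours and 8.56 to 10.73 in control tumours. Control tumour 3 lay among the Bmp4 tumours, so the macrophage means overlapped. With control tumours 1 and 2 both left out, the median macrophage difference was 0.18, with 7 positive and 3 negative. The 5 erythroid markers averaged 4.75 to 4.81 in Bmp4 tumours and 4.88 to 5.71 in control tumours, with no overlap. These means were dim, under each array's own median level (5.73 to 6.17 over the arrays). The 25th percentile of the arrays was also lower in every Bmp4 tumour. It was 4.24 to 4.28 there and 4.30 to 5.04 in control tumours. The part of this shift in the erythroid difference was not tested. The 10 carcinoma markers averaged 7.49 to 7.71 in Bmp4 tumours and 7.69 to 7.92 in control tumours, and the 8 endothelial markers 7.23 to 7.38 in Bmp4 tumours and 6.61 to 7.84 in control tumours. Without control tumour 1 the control ranges were 7.85 to 7.92 for carcinoma and 7.39 to 7.84 for endothelial markers. Both means then lay lower in every Bmp4 tumour, but the single markers were mixed. Of the carcinoma markers 4 were positive, Krt8 (0.12) and Krt18 (0.10) among them, and 6 negative. Of the endothelial markers 3 were positive and 5 negative. The 8 fibroblast markers had a difference in mean level of 0.66 with all arrays, or -0.18 when control tumour 1 was omitted. The 8 neutrophil markers 7.05 to 7.17 and 6.93 to 8.14, the 7 adipocyte markers 5.63 to 5.77 and 5.67 to 6.38, the 8 skeletal muscle markers 4.96 to 5.04 and 4.90 to 6.20, and the 8 proliferation markers 9.18 to 9.79 and 7.08 to 9.74 in Bmp4 and control tumours. The part of these cell types in the glycolysis and hypoxia differences was not tested.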

How the data were processed

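RNA of 6 whole tumours was measured on 1 array each. The authors deposited log2 values for each probe set. RMA and Partek 6.6 appear in the submitters' processing notes, which do not say what arrays were normalized together. A second deposited table holds, per the file headers, a p-value, an adjusted p-value and a ratio of Bmp4 over control for each probe set. Which arrays and model gave those values was not tested.

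Of 45101 probe sets, 5956 without a symbol and 2273 with several were left out. The other 36872 represent 20402 genes, each by the single probe set of highest mean signal; names were updated through RefSeq (GRCm38.p6), with 26976 probe sets under a current symbol, 5246 renamed by accession, 1309 by synonym and 3341 kept as filed. Control probe sets with a gene symbol were kept, since Gapdh has no other. Genes were tested with limma 3.58.1 in R 4.3.3 (lmFit and eBayes on 2 groups, two-sided), adjusting over all 20402 genes by Benjamini-Hochberg, and summarized in Python 3.11.15. Differences are Bmp4 minus control. Dim probe sets were kept, and the number of arrays limits the precision. The fit was tested on simulated data for the size and direction of inserted changes. That test set no bound on how many of the changes had to pass the threshold.

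The listed genes, the further pathway and cell type lists and the omission of control tumour 1 were chosen with earlier results of these data known, so no p is adjusted over a list. All 29 measured genes are named whatever their values, and from each further pathway list the 2 smallest p-values in each direction without control tumour 1. Pkm, Krt5, Krt8, Krt14, Krt18 and Krt19 were named after their values were seen. Alternatives were other normalizations and centrings, dim-gene filters, averaged probe sets, eBayes options, array weights, tumour number as a block and omission of tumours. Slide and scan were not given in the labels and were not tested.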

Additional observations from a re-analysis of the deposited data

How the results depend on the processing

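No glycolytic enzyme and no other hypoxia gene passed the threshold under any alternative but array weights, which called 1 enzyme (Aldoc), 1 hypoxia gene (P4ha1) and 1399 genes in all, where the fit of all 6 arrays called 0 (1001 at an unadjusted p under 0.05); weights estimated by restricted maximum likelihood did not converge, so the gene-by-gene estimate was used. Leaving out single tumours gave 0 to 4 genes in all. Without control tumour 1, 4 genes were called, against 1 with arrays centred on the median, 13 centred on the 75th percentile, 7 with the mean of probe sets and 7 with trend and robust options; leaving out a further tumour gave 0 to 355, the highest without control tumour 3, and 0 without each of the others. Tumour number as a replicate block gave 0 genes with all 6 arrays and 0 without control tumour 1. In the latter fit Bmp4 tumour 1 had no partner of its number and did not inform the difference. The differences equalled those without Bmp4 tumour 1, such as 0.96 for P4ha1 and -1.14 for Aldoc. That fit therefore cannot tell whether the block matters, and it gave the limma adjusted p of 0.814 quoted above for both genes. Same-numbered tumours share only a number in the labels: their deviations from the group means correlated at -0.14, -0.25 and -0.04, and no tumour correlated best with its own number.

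The median of the enzymes stayed positive under every alternative. It was 0.10 to 0.93 over the alternatives to the fit of all arrays, and 0.08 to 0.26 over those to the fit without control tumour 1. That of the other hypoxia genes was 0.98 with all arrays and stayed positive too. Over the alternatives to that fit it was 0.11 with control tumours 1 and 2 left out and 0.15 to 1.39 otherwise. Over the alternatives to the fit without control tumour 1 it was only 0.01 to 0.23. Centring on the 75th percentile moved the median of all genes to -0.42, and without control tumour 1 to -0.15.

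Single genes turned direction as follows, all without passing the threshold; the cause was not tested. Under renewed quantile normalization these were Slc2a1 (-0.35), Slc16a3 (0.09), Hk1 (-0.08), Car9 (-0.39), Ndrg1 (-0.22) and Egln1 (-0.18). Centring turned Slc16a3 (0.11) on the median, and Slc2a1 (-0.16), Car9 (-0.10) and Ndrg1 (-0.05) on the 75th percentile. Array weights turned Slc2a1 (-0.31), Slc16a3 (0.05), Car9 (-0.44), Car12 (-0.42), Ndrg1 (-0.70), Egln1 (-0.27) and P4ha2 (-0.25), and the mean of probe sets Gpi1 (0.60), Car12 (-0.21) and Pdk1 (0.18). With control tumours 1 and 2 left out, Slc16a3 (0.15), Hk1 (-0.22), Gpi1 (0.10), Pfkl (-0.25), Pfkfb3 (-0.20), Ldha (-0.03), Car12 (-0.53), Ndrg1 (-0.56), Egln1 (-0.10), Egln3 (-0.35) and Ddit4 (-0.25) turned. Leaving out single tumours gave ranges that cross 0 for Slc2a1 (-0.05 to 0.50), Slc16a3 (-0.19 to 0.10), Hk1 (-0.07 to 0.87), Aldoc (-1.01 to 0.16), Car9 (-0.04 to 0.66), Car12 (-0.50 to 1.39), Ndrg1 (-0.70 to 0.79), Egln1 (-0.24 to 0.81), Egln3 (-0.18 to 1.78) and P4ha2 (-0.17 to 1.22).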
